A study of Rattus norvegicus with 26 samples.

Results

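TCDD at 1 pM was the second-lowest of the TCDD doses given to primary rat hepatocytes, and it was measured on 2 of the 26 arrays, 1 from each pool of cells. These arrays were chosen by their labels (TCDD, log10 molar dose -12) and set against 4 baseline arrays, the vehicle and TCDD at 0.01 pM (log10 molar dose -14) in each pool. The hepatocytes came from female Sprague Dawley rats of the stock Crl:CD(SD)IGS BR, and the cells of 3 animals were mixed in each of 2 pools. Every culture received the vehicle, 0.5% DMSO, alone or with TCDD or PCB 126, for 48 h. The labels name no genetic change in any group, and they give no age for the animals. Values are log2 expression from RG-U34A arrays, a short-oligonucleotide rat platform, so a difference of 1 is a doubling of signal. With 1 array per pool and dose the pool is the only replicate, and p-values measure only the spread between these arrays, which may be technical.

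TCDD (2,3,7,8-tetrachlorodibenzo-p-dioxin) binds the aryl hydrocarbon receptor (AhR), a cytosolic transcription factor held by the chaperone Hsp90. The bound receptor enters the nucleus, pairs with ARNT and binds DNA at a short core motif near genes of drug metabolism. Cyp1a1, Cyp1a2 and Cyp1b1, with Aldh3a1, Nqo1, and members of the Ugt1a and Gsta families, form the classical AhR battery of the liver.

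Part of this battery was already higher at 1 pM in both pools, while Aldh3a1 and most probe sets of Cyp1b1 stood near baseline. Cyp1a1, the cytochrome P450 most used as a marker of AhR activity, stood at 9.41 and 9.37 log2 in pools 1 and 2 against baseline means of 3.39 and 4.47, and Cyp1a2, its constitutive hepatic relative, stood at 5.85 and 5.51 against 3.69 and 3.72. Such baselines lie near the median of all values, 3.71, so a fold over them is not well measured. Cyp2a1, a steroid 7alpha-hydroxylase, was higher by 2.71 ± 0.63 (SE) log2. Probe sets for the Ugt1a family were higher by 1.33 to 1.64 log2, and the probe set listed for Gsta5 and Gsta2 by 1.54. Aldh3a1 and 3 of 4 probe sets of Cyp1b1 did not stand apart from the baseline at 1 pM, although both genes were far higher at 0.1 nM. None of the 5199 probe sets tested passed an adjusted p of 0.05 in the fit of these 6 arrays (0% called, limma with pool as a block), and 331 had an unadjusted p under 0.05.

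The baseline itself was not uniform in either pool. The pool 2 array of TCDD at 0.01 pM lay above the pool 2 vehicle array for Cyp1a1 (5.66 against 3.28 log2), for Cyp2a1 (5.42 against 3.74) and for the probe set listed for Gsta5 and Gsta2 (9.99 against 8.43). In pool 1 the same pair of arrays held Cyp1a1 at 3.33 and 3.45. Across probe sets, however, this pair differed more in pool 1 (SD of the difference 0.444 log2) than in pool 2 (0.26). In pool 2 the 0.01 pM array differed less from the 1 pM array (0.241) than the vehicle array did (0.337). In pool 1 the 0.01 pM array differed more from the 1 pM array (0.5) than the vehicle array did (0.351). The pool 2 vehicle array was also the lowest of the 15 arrays of its pool for Dnajb1, at 4.83 against 5.94 to 7.07 in the others. The comparison of TCDD at 0.01 pM with vehicle called none of the 5199 probe sets (0% called, limma over the 14 vehicle and TCDD arrays), with 58 at an unadjusted p under 0.05. The pools also differed in an RNA quality measure, the log2 excess of 3′ over 5′ actin signal, which was 0.71 to 0.92 in the pool 1 arrays and 1.42 to 1.67 in those of pool 2, so every difference was taken within a pool.

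The sequences shown here are the 250 bases before the annotated start of 4 responsive genes, from RefSeq promoters on GRCr8, printed 5′ to 3′ in the direction of the gene. Cyp1a2 and Cyp2a1 were high at 1 pM, Nqo1 was slightly higher, and Cyp1b1 was near baseline at 1 pM on 3 of 4 probe sets but high at 0.1 nM. Capitals mark the AhR-ARNT core GCGTG on either strand (CACGC where it lies on the other strand).
Cyp1a2 (chr8:66978150-66978399, - strand): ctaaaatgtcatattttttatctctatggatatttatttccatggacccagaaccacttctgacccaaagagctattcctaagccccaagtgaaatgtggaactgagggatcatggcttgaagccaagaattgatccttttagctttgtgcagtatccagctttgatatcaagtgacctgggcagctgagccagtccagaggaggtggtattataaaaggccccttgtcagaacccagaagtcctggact
Cyp2a1 (chr1:91359028-91359277, + strand): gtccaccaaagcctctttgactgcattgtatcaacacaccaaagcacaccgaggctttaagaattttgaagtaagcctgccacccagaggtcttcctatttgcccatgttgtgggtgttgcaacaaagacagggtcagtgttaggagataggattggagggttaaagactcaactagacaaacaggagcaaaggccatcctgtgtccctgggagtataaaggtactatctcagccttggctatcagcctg
Cyp1b1 (chr6:21094315-21094564, + strand): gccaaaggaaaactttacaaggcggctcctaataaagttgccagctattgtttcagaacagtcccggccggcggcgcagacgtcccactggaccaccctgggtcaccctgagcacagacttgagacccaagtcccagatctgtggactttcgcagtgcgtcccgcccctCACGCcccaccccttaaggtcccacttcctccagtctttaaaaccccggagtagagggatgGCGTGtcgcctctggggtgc
Nqo1 (chr19:52220268-52220517, - strand): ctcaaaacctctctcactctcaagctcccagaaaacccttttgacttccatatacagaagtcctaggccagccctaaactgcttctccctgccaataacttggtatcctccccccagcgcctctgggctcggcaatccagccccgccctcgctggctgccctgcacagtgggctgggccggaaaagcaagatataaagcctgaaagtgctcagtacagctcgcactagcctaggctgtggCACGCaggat
Of 7 genes looked up (these 4, Cx3cl1, Cyp1a1 and Aldh3a1), 5 were in the table, and 25.9% of all 33469 promoters of this length held the core at least once. The Cyp1b1 window held 2 matches, starting 81 and 20 bases before the start, and the Nqo1 window held 1, starting 10 bases before it. The windows of Cyp1a2, Cyp2a1 and Cx3cl1 held no match, which says only that these letters are not in those 250 bases.

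Cyp1a1 oxidises polycyclic aromatic hydrocarbons and is nearly silent in uninduced liver. Its log2 level in pool 1 was 3.45 with vehicle, 3.33 with 0.01 pM and 9.41 with 1 pM TCDD, and in pool 2 it was 3.28, 5.66 and 9.37. Both 1 pM arrays lay far above all 4 baseline arrays, and they differed from each other by less than the baseline arrays did. The estimate was 5.46 ± 0.65 log2 (SE), with a 95% interval from 3.87 to 7.06 and an adjusted p of 0.2. With the spread taken from all 14 vehicle and TCDD arrays the same estimate, ± 0.54, passed at an adjusted p of 0.0175. With all 26 arrays, which include the spread between PCB 126 arrays, the adjusted p was 1. Without the pool 2 array of 0.01 pM the estimate was 6.05, and without the pool 2 vehicle array it was 5.03 with an adjusted p of 0.712. The former array stands apart by its Cyp1a1 level, so leaving it out gives a value for this gene and no test. An exact permutation of arrays within pools allows 9 assignments, and its p for Cyp1a1 was 0.111, the smallest it can give. A probe set listed with no gene moved in the same range, from 4.36 and 3.74 to 10.56 in pool 1 and from 5.52 and 7.63 to 10.65 in pool 2.

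Cyp1a2 metabolises aromatic amines and caffeine and is expressed in hepatocytes without an inducer. Its probe set with the highest mean read 3.54 and 3.85 in the pool 1 baseline and 5.85 at 1 pM, and 3.39 and 4.05 against 5.51 in pool 2. All 3 probe sets of the gene placed both 1 pM arrays above all 4 baseline arrays of either pool. Their estimates were 1.97 ± 0.21, 1.40 ± 0.13 and 1.25 ± 0.15 log2, with adjusted p of 0.2, 0.177 and 0.2. The first and second passed in limma when TCDD at 0.01 pM alone was the baseline (1.73 ± 0.20 and 1.30 ± 0.16, both with an adjusted p of 0.0189). That fit leaves 1 residual degree of freedom, so its spread is poorly known. The mean of the 3 probe sets also passed in a fit over 3034 genes, at 1.54 log2 with an adjusted p of 0.0331.

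Cyp2a1 was high at 1 pM in both pools, but from unequal baselines. It read 2.44 and 2.45 in the pool 1 baseline and 6.28 at 1 pM, and 3.74 and 5.42 against 6.17 in pool 2. The 1 pM arrays were alike, while the pool 2 baseline was higher and its 0.01 pM array lay within 1 log2 of the 1 pM array. The difference was 3.83 in pool 1 and 1.59 in pool 2, with an adjusted p of 0.729 for the common estimate. A probe set listed for both Cyp2a2 and Cyp2a1 was higher by 1.31 in pool 1 and 1.34 in pool 2, and its levels ran from 3.80 to 5.09 in the baseline and were 5.25 and 5.80 at 1 pM. Cyp2a2 itself, a close relative, read 7.75 and 7.16 against 8.05 in pool 1 and 6.85 and 6.98 against 7.28 in pool 2, a difference of 0.48 ± 0.21.

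**Figure D1:**
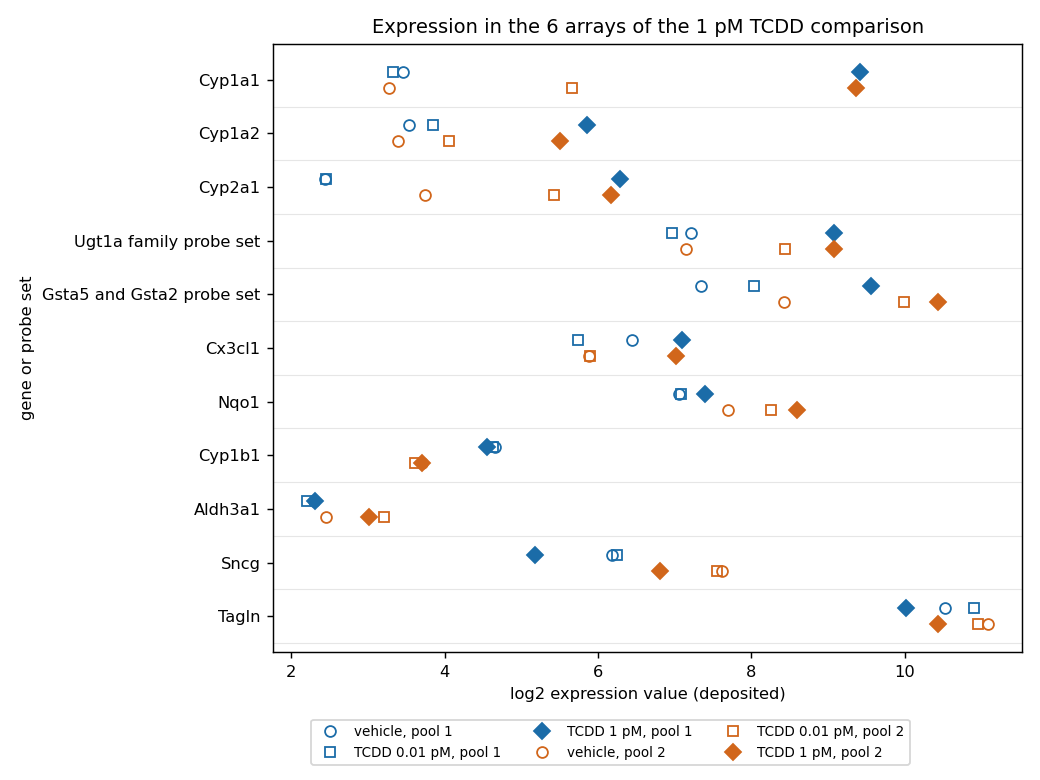
Log2 expression (x axis) of 9 genes and 2 probe sets that name several genes (y axis) in the 6 arrays, coloured by pool, with open circles for vehicle, open squares for TCDD at 0.01 pM and filled diamonds for TCDD at 1 pM. Cyp1a1 stands at 9.41 and 9.37 with 1 pM, and its open square of pool 2, at 5.66, lies between the other baseline arrays and the 1 pM arrays.

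Conjugating enzymes of the battery were mostly on probe sets that name several genes, so no single member can be named. The Ugt1a family adds glucuronic acid to phenols and bilirubin, and its members share a common 3′ part. Of its probe sets, the one with the largest estimate read 7.21 and 6.97 against 9.08 in pool 1 and 7.15 and 8.44 against 9.08 in pool 2. The 1 pM arrays were above every baseline array, and the pool 2 array of 0.01 pM was the nearest to them. The estimates of 4 Ugt1a probe sets were 1.64 ± 0.38, 1.45 ± 0.45, 1.42 ± 0.27 and 1.33 ± 0.35 log2, and 3 of them exceeded 1 log2 in both pools. The probe set listed for Gsta5 and Gsta2, alpha-class glutathione transferases, read 7.34 and 8.03 against 9.56 in pool 1 and 8.43 and 9.99 against 10.43 in pool 2. Its estimate was 1.54 ± 0.46, and the pool 2 baseline reached above the pool 1 array of 1 pM.

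Nqo1, a quinone reductase regulated by both AhR and NRF2, was only slightly higher. It read 7.05 and 7.08 against 7.40 in pool 1 and 7.70 and 8.25 against 8.59 in pool 2, a difference of 0.48 ± 0.20 log2. A second probe set, at 2.03 to 2.28 in all 6 arrays, gave 0.00 ± 0.05. On the brighter one the 1 pM array was the highest within each pool, but the pool 2 vehicle array lay above the pool 1 array of 1 pM. Ugdh, which makes the sugar donor for glucuronidation, gave 0.26 ± 0.15, and Nfe2l2, which encodes NRF2, gave 0.31 ± 0.25.

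Cyp1b1, an extrahepatic P450 that metabolises oestrogens, stood at its baseline level at 1 pM on its brightest probe set. It read 4.66, 4.63 and 4.55 in pool 1 and 3.70, 3.61 and 3.71 in pool 2, in the order vehicle, 0.01 pM and 1 pM. The estimate was -0.02 ± 0.07, with a 95% interval from -0.20 to 0.16 log2. Of the other 3 probe sets, 2 gave -0.01 ± 0.05 each. The last read 4.43 and 4.63 against 5.01 in pool 1 and 3.93 and 3.89 against 4.16 in pool 2, above both baseline arrays of each pool (0.36 ± 0.10, adjusted p = 0.753). Aldh3a1, an aldehyde dehydrogenase, read 2.30, 2.21 and 2.31 in pool 1 and 2.45, 3.21 and 3.01 in pool 2. Its estimate was 0.12 ± 0.20 with an interval from -0.37 to 0.61, and these values are near the low end of the scale.

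Over the battery list, 7 of 13 genes had a probe set of their own that was kept. None passed the test, 2 had an unadjusted p under 0.05 (Cyp1a1 and Cyp1a2, both higher), and 5 lay above both baseline arrays of their pool in both pools. Among all 3034 genes that criterion held for 295 (9.72%), and the opposite one, below both baseline arrays in both pools, for 525 (17.3%). The median estimate was 0.31 log2 in the list and -0.02 over all genes. For the 6 measured genes of the receptor complex and its partners the median was 0.02, with none, by the brightest probe set of each, at an unadjusted p under 0.05. The receptor gene Ahr gave 0.29 ± 0.19 on its brightest probe set, 0.76 ± 0.28 on another that read 1.74 to 2.73 in the baseline and 3.20 and 2.69 at 1 pM (adjusted p = 0.753), and 0.02 ± 0.05 on the last. On their brightest probe sets, its partner Arnt gave 0.09 ± 0.08 and the chaperone gene Hsp90ab1 -0.04 ± 0.08.

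Agreement between the pools beyond a set size was sparse. Of the kept probe sets, 12 were higher by more than 1 log2 in both pools (0.231%) and none were lower by that much in both (0%). Of the 12, 6 name 1 gene, namely Cyp1a1, Cyp1a2 with 3 probe sets, Cyp2a1 and Cx3cl1. Another 5 name several genes of the Ugt1a, Gsta and Cyp2a families, and 1 is listed with no gene. At a smaller size, 32 probe sets were higher and 35 lower in both pools by more than 0.5. The sign was the same in both pools for 53% of the probe sets. The count of 12 fell to 6 without the pool 2 vehicle array and stood at 15 without the pool 2 array of 0.01 pM. Whether the difference itself differed between pools was tested with a pool by dose term, which called none of the 5199 probe sets (0% called), with 192 at an unadjusted p under 0.05 and a smallest adjusted p of 0.497.

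**Figure D2:**
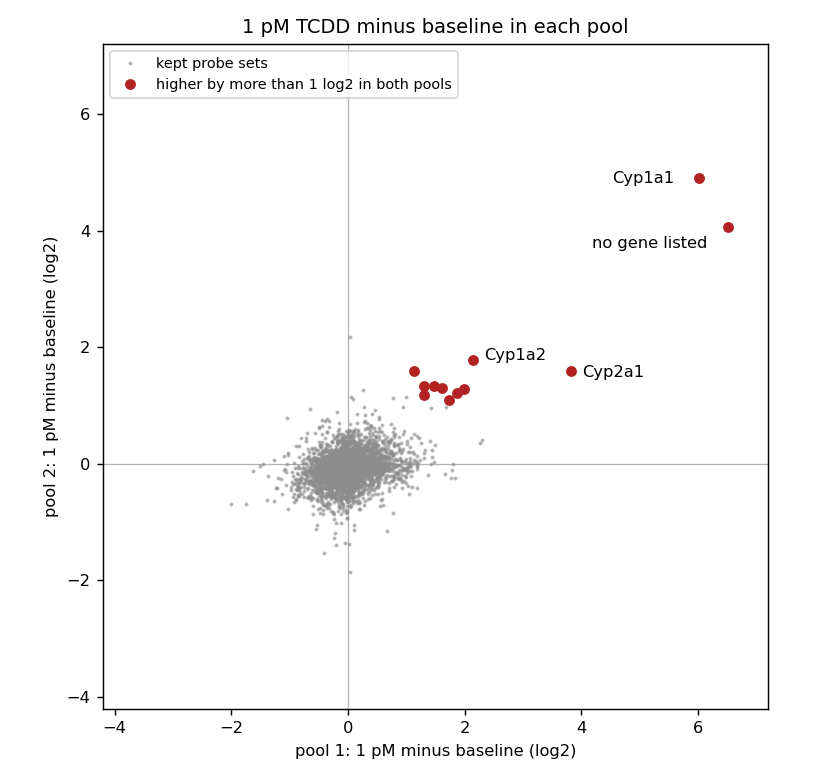
Difference of the 1 pM array from the mean of both baseline arrays in pool 1 (x axis, log2) and in pool 2 (y axis, log2), 1 point for each of 5199 probe sets. The 12 probe sets higher by more than 1 log2 in both pools are red, with Cyp1a1 at 6.02 and 4.91, and no point lies beyond -1 on both axes.

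Outside the battery and the Cyp2a family, Cx3cl1, the membrane-bound chemokine fractalkine, was the gene with a probe set beyond 1 log2 in both pools. Its brightest probe set read 6.44 and 5.74 against 7.09 in pool 1 and 5.88 and 5.90 against 7.02 in pool 2, and another read 6.04 and 5.35 against 6.83 and 3.91 and 4.17 against 5.64. In both probe sets the 1 pM arrays were above the baseline of their own pool. The estimates were 1.07 ± 0.22 and 1.37 ± 0.24 log2. The remaining probe set gave 0.03 in pool 1 and 2.18 in pool 2, and so the probe sets disagree in pool 1. Neurl3, a RING-type ubiquitin ligase gene, read 9.54 and 9.73 against 10.16 in pool 1 and 9.15 and 9.01 against 9.69 in pool 2 (0.57 ± 0.13). Plg, which encodes plasminogen, was higher by 1.18 in pool 1 and 0.48 in pool 2 (0.83 ± 0.21). Gsta3 was higher by 0.78 and 0.54 on its brightest probe set (0.66 ± 0.24), while its other probe sets gave 0.19 ± 0.16 and 0.01 ± 0.06. Dnajb1, a heat shock co-chaperone, was higher by 0.96 ± 0.58 on its brightest probe set. In pool 2, however, its 1 pM array (6.93) lay below the 0.01 pM array (7.07) and above the vehicle array (4.83). Another Dnajb1 probe set gave 0.46 in pool 1 and -0.02 in pool 2 (0.22 ± 0.17). Gm2a and Bcl2l1 gave 0.71 ± 0.49 and 0.52 ± 0.26, with pool 2 arrays of 0.01 pM close to those of 1 pM. Other probe sets of Bcl2l1 gave 1.19 ± 0.49 and 0.24 ± 0.16.

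Among genes that were lower in both pools, Sncg, which encodes gamma-synuclein, read 6.18 and 6.25 against 5.18 in pool 1 and 7.61 and 7.55 against 6.81 in pool 2. Its baseline arrays agreed closely within each pool, and the estimate was -0.90 ± 0.15 log2 with an adjusted p of 0.606. At 10 nM TCDD, however, Sncg read 6.56 in pool 1, above its baseline mean of 6.22. In pool 2 it read 6.06 at that dose, below 7.58. Tagln, the actin-binding protein transgelin, read 10.53 and 10.90 against 10.02 in pool 1 and 11.09 and 10.95 against 10.43 in pool 2 (-0.64 ± 0.14). Both 1 pM arrays of Tagln lay below all 4 baseline arrays. Rab11fip5, an effector of Rab11 vesicle transport, gave -1.22 ± 0.30, with -1.75 in pool 1 and -0.69 in pool 2. The ubiquitin ligase gene Trim32 gave -0.73 ± 0.15 and passed in limma where TCDD at 0.01 pM alone was the baseline (-0.85 ± 0.11, adjusted p = 0.029). That fit leaves 1 residual degree of freedom. Cipc, Serpina3l, Dapk2, Kif13a and Mark3 had estimates between -0.95 and -0.61, and none passed. Not every fall held at higher doses in both pools. At 10 nM in pool 1 Cipc, Dapk2 and Ttc3 read 4.63, 5.94 and 6.36, above their baseline means of 4.24, 5.32 and 6.29. In pool 2 they read 4.83, 5.83 and 6.89 at that dose, below 5.41, 6.41 and 7.40.

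Lists of related function are described by their counts, to be set beside 9.72% above and 17.3% below among all genes. In the list of NRF2 and glutathione genes, 12 of 22 measured genes lay above both baseline arrays in both pools, 1 lay below, and 5 were higher at an unadjusted p under 0.05, with none past the adjusted threshold. These 5 were the glutathione transferase genes Gsta1, Gsta3, Gstm1 and Gstm2 and the glutathione reductase gene Gsr. Their estimates ran from 0.33 to 0.66 log2, each on the brightest probe set of the gene. Other probe sets gave less, with 0.19 ± 0.16 and 0.01 ± 0.06 for Gsta3, and 0.20 ± 0.22 and 0.16 ± 0.14 for Gsr. Gstm1, for example, read 12.97 and 12.92 against 13.39 in pool 1 and 12.80 and 12.99 against 13.11 in pool 2. Akr7a3, an aflatoxin aldehyde reductase, gave 0.37 ± 0.15, and Gclm, a subunit of the enzyme that limits glutathione synthesis, gave 0.34 ± 0.17. Hmox1, haem oxygenase, gave 0.06 in pool 1 and -0.55 in pool 2, and Txnrd1, thioredoxin reductase, -0.35 and 0.13. The list's median was 0.35 in pool 1 and 0.18 in pool 2, against -0.03 and -0.01 over all genes. The count of 12 ran from 11 to 15 when each baseline array was left out or arrays were centred. Leaving out a baseline array removes a condition, so it can only keep or raise this count, and only centring could lower it. The share over all genes under the same changes is not given here.

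In the actin cytoskeleton list, 9 of 19 genes lay below both baseline arrays in both pools, 1 lay above, and 5 were lower at an unadjusted p under 0.05, none past the adjusted threshold. The 5 were Tagln, Anxa1, Acta1, Vim and S100a10, which code for transgelin, annexin A1, skeletal actin, vimentin and an annexin partner, with estimates from -0.65 to -0.40. Vimentin read 5.97 and 6.56 against 5.40 in pool 1 and 6.71 and 6.96 against 6.4 in pool 2. The count of 9 ran from 8 to 11 when each baseline array was left out or arrays were centred. Here too, leaving out a baseline array could only keep or raise the count. Actb, the main cytoplasmic actin, lay above instead, at 0.13 ± 0.07. Vim and Tagln are also in the list of stellate cell and fibroblast markers, of which 10 were measured and 3 were lower at an unadjusted p under 0.05. The mean level of those 10 was 7.08 and 7.18 in the pool 1 baseline against 6.85 at 1 pM. In pool 2 it was 6.77 and 6.80 against 6.68. The part of such cells in the result was not tested. Fewer cells of a type and less RNA per cell cannot be told apart in these cultures.

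**Figure D3:**
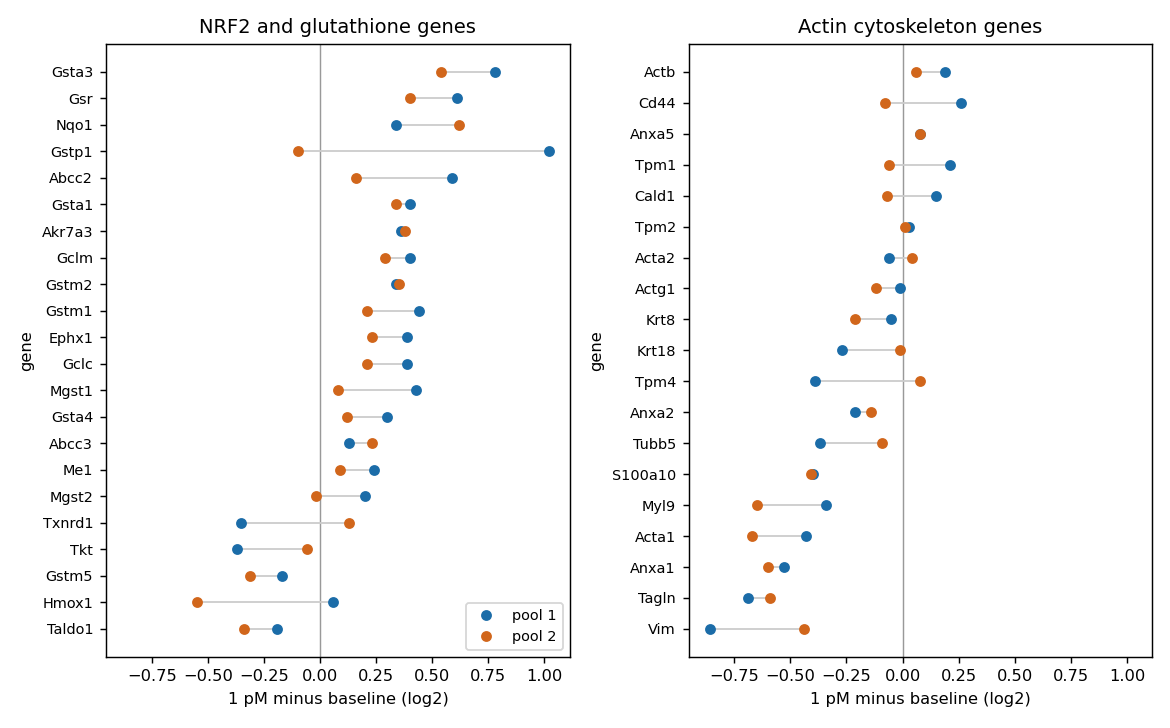
Difference of 1 pM TCDD from the baseline (x axis, log2) for the 22 measured NRF2 and glutathione genes (left) and 19 actin cytoskeleton genes (right), 1 gene a row (y axis), with pool 1 in blue and pool 2 in orange. Each gene is drawn by its brightest probe set. Gsta3 stands highest on the left by its mean, at 0.78 and 0.54, and Vim lowest on the right, at -0.86 and -0.44.

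Other lists gave the following counts of genes above and below both baseline arrays in both pools. Of 29 acute phase, chemokine and complement genes 4 lay above and 1 below, of 21 glucose, lipid and cholesterol genes 3 and 2, of 17 heat shock genes 1 and 2, and of 13 cell cycle genes 4 and 1. Of 21 constitutive liver P450 genes 7 lay above and 2 below, with a median of 0.18, and of 14 CAR and PXR targets 6 and 1. Of 13 genes for glucuronosyltransferases and sulfotransferases 5 lay above and none below, with a median of 0.06. Of 19 genes reported to respond to TCDD in liver, 5 lay above and none below, with a median of 0.16, and this list includes Cyp2a1. Orm1, an acute phase glycoprotein, gave 0.34 ± 0.08, and Cpt1a, the entry enzyme of fatty acid oxidation, gave -0.55 ± 0.20. Of 17 hepatocyte markers 6 lay above both baseline arrays in both pools and 1 below, 2 were higher at an unadjusted p under 0.05, and the median was 0.16. They were bright in all 6 arrays, with a mean log2 level of 9.44 to 9.64 against 5.0 to 5.58 for 7 Kupffer cell and macrophage genes and 3.33 to 4.20 for 2 lymphocyte genes. Of 5 cholangiocyte markers none lay above and 1 below, and of 2 endothelial markers none did either. The part of these shifts in the counts of the NRF2 and actin lists was not tested.

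The next dose shared by both pools shows how far the levels at 1 pM were from those reached later. From 1 pM to 0.1 nM, 10 of the 5199 probe sets passed (0.192%, limma over the 14 vehicle and TCDD arrays), 8 higher and 2 lower. Cyp1b1 rose by 5.59 ± 0.45 on its brightest probe set (adjusted p = 0.000909), Cyp1a2 by 5.13 ± 0.51 (adjusted p = 0.00398) and Aldh3a1 by 4.07 ± 0.57 (adjusted p = 0.0304). Cyp1a2 passed on all 3 of its probe sets and Cyp1b1 on 3 of 4, and another called probe set was listed with no gene. Myl9, a myosin light chain gene, fell by 1.75 on the log2 scale and A2m, which encodes alpha-2-macroglobulin, fell by 2.85, and both are named because they were called, after their values were seen. Cyp1a1 was higher by a further 2.83 ± 0.63 with an adjusted p of 0.196, and Cx3cl1 by 0.36 ± 0.42, with an interval from -0.59 to 1.31.

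Levels at 1 pM can also be set against those at 10 nM. At 1 pM the log2 difference of Cyp1a1 from baseline was 65.9% of its difference at 10 nM in pool 1 and 62.1% in pool 2. The same share was 35.8% and 23.9% for Cyp1a2, 56.8% and 35.8% for Cyp2a1, and 47.1% and 35.5% for the Ugt1a probe set with the largest estimate. It was 43.1% and 35.3% for the probe set of Gsta5 and Gsta2, and 8.86% and 24.6% for Nqo1. Cyp1b1 stood at -1.45% and 0.665%, and Aldh3a1 at 1.09% and 3.29%. For the P450 genes and Aldh3a1 these shares rest on baselines near the low end of the scale. The linear values that follow set the whole 1 pM signal against that at 10 nM, with no baseline taken away. Part of each is signal already present in the baseline, so the order of genes cannot be compared with that of the log2 shares. Nqo1, for example, had baseline means of 7.06 and 7.97 against 10.89 and 10.49 at 10 nM. Cyp1a1 at 1 pM was 11.6% and 12.5% of its 10 nM level, Cyp2a1 13.2% and 13.8%, Cyp1a2 6.83% and 1.93% and Nqo1 8.88% and 26.8%. The Ugt1a probe set was at 21.1% and 19.8%, and that of Gsta5 and Gsta2 at 18% and 21.4%. Cyp1b1 was at 1.2% and 0.5%, and Aldh3a1 at 2.45% and 2.47%. The linear share of Cx3cl1 was 75.7% and 67.6%, with 10 nM levels of 7.49 and 7.59 and baseline means of 6.09 and 5.89. These shares are descriptions with 1 array per pool and dose, and the order of the genes was not tested.

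Pool 2 was also measured at 10 pM, on an array with a 3′ excess of 2.19 for actin and 1.24 for Gapdh, against at most 1.68 and 0.73 in the other 25 arrays, and the part of this in its values was not tested. There Cyp1a1 went from 9.37 at 1 pM to 10.77 and then to 12.16 at 0.1 nM. Cyp1b1 went from 3.71 to 8.27 and 10.07, and Aldh3a1 from 3.01 to 5.33 and 8.10. On these probe sets both were close to their pool 2 baseline arrays at 1 pM and well above them at 10 pM. Nqo1 went from 8.59 to 10.19 and 10.52. Tagln went from 10.43 to 9.98 and 8.15, and in pool 1 it stood at 7.46 at 0.1 nM. Plg stood at 6.80 at 1 pM and 5.24 at 0.1 nM in pool 1, and at 5.99 at 1 pM, 4.08 at 10 pM and 5.90 at 0.1 nM in pool 2.

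**Figure D4:**
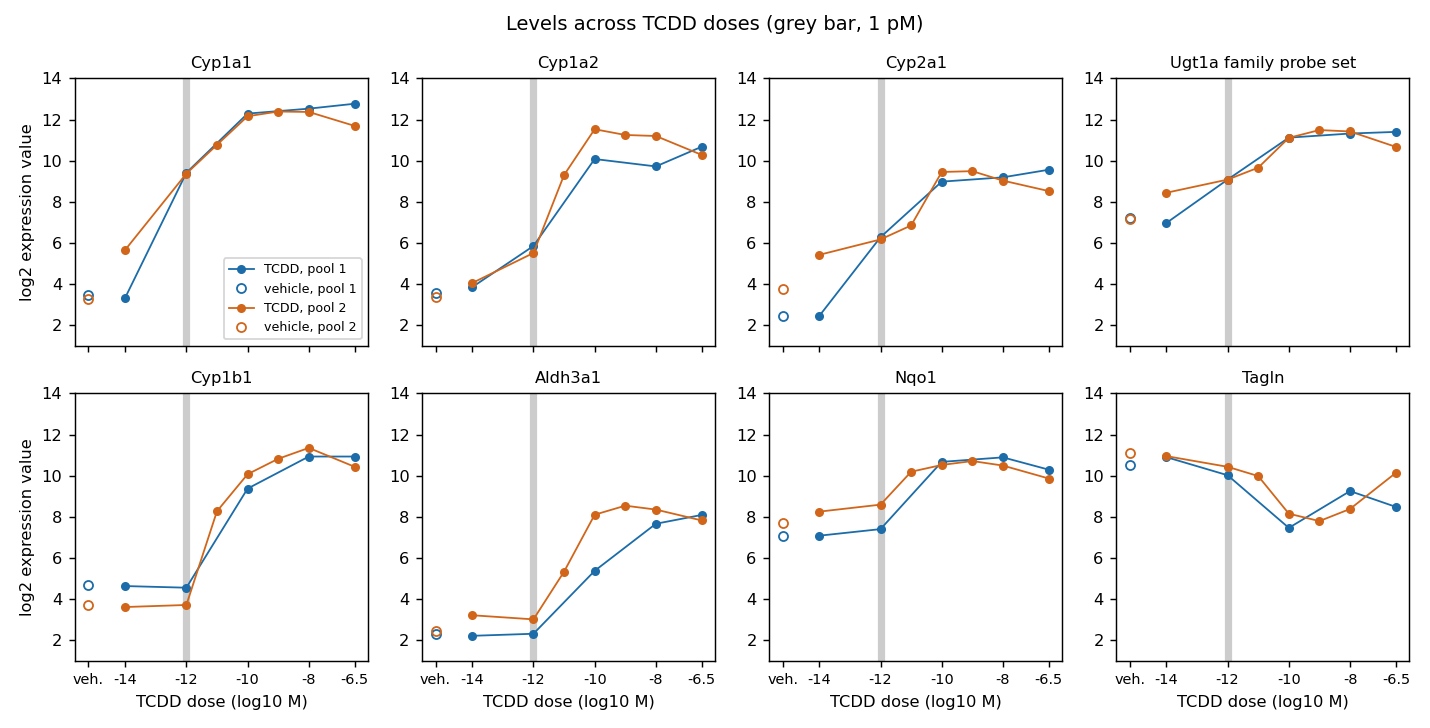
Log2 expression (y axis) of 7 genes and a Ugt1a family probe set against TCDD dose (x axis, log10 molar), 1 point per array, with pool 1 in blue, pool 2 in orange and vehicle as open circles at the left. At the grey bar (1 pM) Cyp1a1 stands at 9.41 and 9.37 while the plotted probe set of Cyp1b1 stands at 4.55 and 3.71, near its baseline means of 4.64 and 3.66.

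PCB 126 is a dioxin-like pentachlorobiphenyl that also binds AhR, and 1 pM is a dose at which both chemicals were given to both pools. Cyp1a1 read 9.41 with TCDD and 3.21 with PCB 126 in pool 1, and 9.37 with TCDD and 10.80 in the library labelled PCB 126 at 1 pM in pool 2. That library stands apart, since the pool 2 array at 10 pM PCB 126 read 7.91 for the same gene. Cyp1b1 read 9.14 in that library, against 3.78 at 10 pM and 3.81 at 0.1 nM PCB 126 in the same pool and 4.16 at 1 pM in pool 1. Cx3cl1, on its brightest probe set, was not lower with 1 pM PCB 126 in pool 1, where Cyp1a1 was low. It read 7.64 there against 7.09 with TCDD, and 6.61 against 7.02 in pool 2. With both arrays, the difference of TCDD from PCB 126 called none of the probe sets (0% called, limma over all 26 arrays), with 101 at an unadjusted p under 0.05. The difference for Cyp1a1 was 2.39 ± 1.66 log2, with an interval from -1.26 to 6.03, and for Cyp1a2 it was -0.93 ± 1.06, with an interval from -3.22 to 1.36. Without the pool 2 library of PCB 126, 1 probe set passed (0.0192%), Cyp1a1, with an estimate of 6.22 log2. The library was set aside for its level of this same gene, so that value is a description and no test, and the lone PCB 126 array is assumed to vary like the other groups. This was 1 pair of chemicals at 1 matched dose, and the p-values are adjusted over all probe sets.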

How the data were processed

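The values are the authors' deposited log2 expression values, 1 column per array, and were used as given. Per the submitters' processing notes the tools were GCRMA 2.8.0 and RMA, whose settings and roles the labels do not state. GCRMA can draw dim values together, so low differences may be understated, but its effect on these values was not tested. After removal of 59 control probe sets, 5199 of 8740 were kept, whose second-highest value over 26 arrays exceeded the median of all values, 3.71. A gene is its kept probe set with the highest mean (3034 genes). Probe sets ending in _s or _f can share sequence among relatives.

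Array medians were 3.90 to 3.93 in pool 1 and 3.53 to 3.58 in pool 2 for the 6 arrays; 2 arrays per dose limit the precision. Tests used limma 3.58.1 in R 4.3.3 (eBayes with trend and robust, pool as a block, 3 residual degrees of freedom), Benjamini-Hochberg adjusted over 5199 probe sets, and were tested on simulated data. Deviations of arrays of the same pool from their group means correlated at 0.811 to 0.892, and the labels place them in the same animals' cells. Figures used matplotlib 3.10.9. The members, gene lists and tests were chosen with earlier results of these data known. Named genes are the called genes, the 10 largest agreeing differences each way, battery and receptor members, and up to 4 members of each other list. Counts of genes above or below both baseline arrays were also taken without each baseline array and after centring, chosen after seeing the data.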

Additional observations from a re-analysis of the deposited data

Results flagged for a closer look

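In 25 genes looked at, the 4 baseline arrays were searched for an array far from the other three, which chance alone gives in about 1 of 20 groups. The pool 2 array of TCDD at 0.01 pM stood far above the others for Cyp1a1, at 5.66 log2, with a gap of 0.925 of the whole range. The same array stood above the others for Dnajb1, at 7.07, with a gap of 0.83 of the range. The search put both pools together, and within pool 2 the other arrays than vehicle ran from 5.94 to 7.07, so there the vehicle array, at 4.83, is the one that stands apart. No other gene of the 25 was marked. Without the 0.01 pM array of pool 2 the difference of Cyp1a1 at 1 pM was 6.05 log2.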

How the results depend on the processing

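The count of called probe sets in the 6-array comparison was 0, and it stayed at 0 with no replicate block for the pool (22 at an unadjusted p under 0.05 against 331), with a filter on the 6 arrays, with all 26 arrays, with centred arrays, with plain eBayes and with pool 1 alone. It was 2 without the filter, 1 with all 14 vehicle and TCDD arrays, 1 with vehicle alone as the baseline, 4 with TCDD at 0.01 pM alone, 1 with the mean of a gene's probe sets and 146 with pool 2 alone, which leaves 1 residual degree of freedom and no replicate pool. Leaving out 1 array at a time gave 0 to 1. The fits with vehicle alone or TCDD at 0.01 pM alone as the baseline also leave 1 residual degree of freedom. The 12 probe sets beyond 1 log2 in both pools became 7 with 0.01 pM alone as the baseline, 3 genes with probe sets averaged, and 6 to 15 without 1 array. From 1 pM to 0.1 nM, all 26 arrays gave 21 calls against 10, and the contrast with PCB 126 gave 1 without its pool 2 library. Of 449 values of 25 genes, 429 kept direction and side of the threshold, 14 passed it and 6 reversed. The reversals were in genes at baseline. Cyp1b1 was 0.01 with 0.01 pM alone as the baseline, 0.05 in pool 2 alone, -0.09 to 0.05 without 1 array and 0.08 with probe sets averaged. Aldh3a1 was -0.05 with 0.01 pM alone as the baseline and -0.05 to 0.28 without 1 array.

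The design has 1 array per dose and pool, so a difference seen in both pools has 2 independent readings. Levels near 3 log2 are close to the floor of the summary, and small differences there are not resolved.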
